A study of Danio rerio with 6 samples.

Results

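Chemokines are small secreted proteins that steer migrating cells along gradients. Their receptors are seven-helix proteins of the cell membrane, most of which couple to inhibitory G proteins. The chemokine ligand and receptor genes described here are the 51 rows, of 21860 genes in the deposited table, whose gene name begins, in lower case, with ccl, cxcl, ccr, cxcr or ackr and a number, or with xcr1. They carry 49 names, since ccl39.3 and cxcr3.1 each stand for a pair of gene identifiers, and they divide into 33 ligands and 18 receptors. Another 20 rows that the deposited annotation ties to chemokines were not counted as members: some carry the same stems in capitals, such as CXCR5 and CXCL11 (1 of many), and the rest have other kinds of name.

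RNA came from adult zebrafish brains of the mpeg1-GFP line (TLF x AB, 9 to 12 months old), in which green fluorescent protein is driven by a macrophage gene promoter and marks microglia and other macrophages. Cells were released with trypsin, enriched on Percoll, sorted for GFP and sequenced as single 50 nucleotide reads after low-input amplification. The groups, with 2 libraries each, were control (wild type), csf1ra-/- and csf1ra-/-;b+/-, called compound mutants below, which carried 1 mutant csf1rb copy on the csf1ra-/- background; another label of these samples reads as loss of both receptors, and the genotype was followed here. All groups carried the reporter. The labels do not say how many fish gave a library, nor whether different fish gave the libraries of a group, so p-values cover only library-to-library spread, which may be technical.

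The csf1ra and csf1rb genes encode the zebrafish receptors for colony-stimulating factor 1 and interleukin 34, on which microglia depend. In brain macrophages, chemokines are known both as signals that these cells follow and as signals they release to call in other leukocytes. Zebrafish have many more CC chemokine genes than mammals, mostly in arrays of close copies named by a number for the cluster and a suffix for the copy. Ligands with a counterpart in mammals include Ccl19, Ccl25, Cxcl8, Cxcl11 and Cxcl12, while ccl33, ccl34, ccl35, ccl38 and ccl39 name clusters of fish.

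Values are signal, headed CPM by the authors, which is reads over a library size they had scaled. Reads per library totalled 4241988 to 15011963, and members took 0.504 to 1.22% of them. Control replicate 1 stood apart, since it had the fewest reads and a scaled size of 1.73 times its total, against 0.802 to 1.07 in the other 5 libraries. The microglial label was checked against 20 macrophage and microglia genes, of which mpeg1.1, apoeb, c1qa, c1qb, c1qc and csf1rb had reads in every library. In compound mutant replicate 1, 1 of the 20 had 0 reads. The list summed to 27598 and 59417 signal units in the controls, 36665 and 30408 in csf1ra-/- libraries, and 63067 and 80461 in compound mutants. In compound mutants against control, 0 of the 20 passed limma in either direction. It called 0.793% of all genes higher and 0.305% lower there, so that count says nothing particular about the list. Signal of csf1ra was 37.7 and 67.9 (control), 42.6 and 24.3 (csf1ra-/-) and 18.5 and 7.73 (compound mutants), which does not check the genotypes, since the labels do not say that an allele removes its RNA. In bulk samples, fewer cells of a type and less RNA per cell cannot be told apart.

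**Figure D1:**
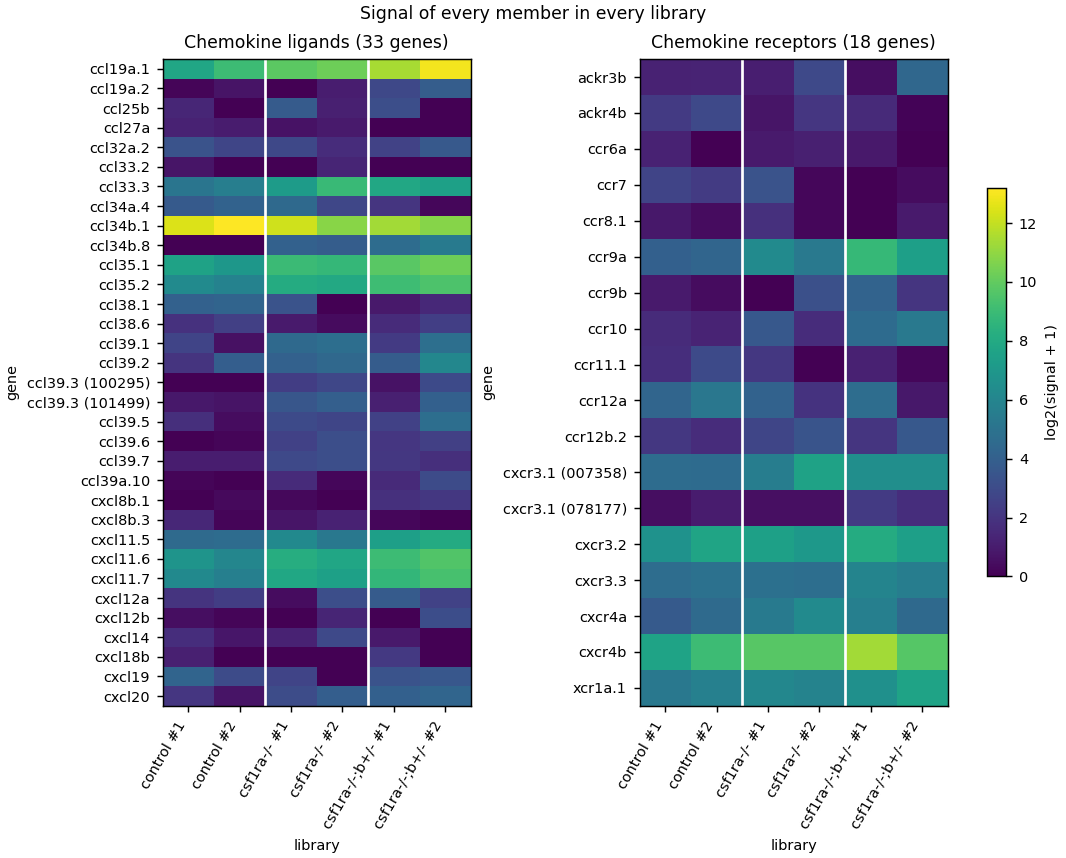
Signal of the 51 chemokine ligand and receptor genes (rows) in the 6 libraries (columns), as log2 of signal plus 1 and not scaled for gene length. White lines part the control, csf1ra-/- and compound mutant libraries; ccl34b.1 is dimmer and ccl19a.1, ccl35, cxcl11 and ccr9a are brighter to the right.

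In compound mutants against control, 8 members rose and 0 fell of the 48 tested (those reaching a signal of 1 in 2 or more libraries). They were the ligands ccl19a.1, ccl34b.8, ccl35.1, ccl35.2, cxcl11.5, cxcl11.6 and cxcl11.7 and the receptor ccr9a. The test was limma on log2 of signal plus 1 with Benjamini-Hochberg adjustment over all 21316 genes tested and a threshold of 0.05, and it called 0.793% of those genes higher and 0.305% lower. At an unadjusted limma p under 0.05, 19 members were higher and 3 lower, where 11.9% and 15.6% of all genes were. The median log2 difference was 1.44 over the 48 members and -0.16 over all genes tested. By group it was 1.82 for the 31 tested ligands and 0.97 for the 17 tested receptors.

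Both compound mutant libraries lay above both controls for 26 members and below for 6, against 25.3% and 33.3% of all genes. The 8 calls rest on all 6 libraries. With 1 library left out, the median log2 difference was 1.30 to 1.81 over members and -0.244 to -0.140 over all genes. Each such fit has 1 library in a group, so it cannot test how firm the calls are. Scaling to total reads, which moved the median of all genes from -0.16 to -0.70, left 4 members higher (ccl19a.1, ccl34b.8, ccl35.2 and ccr9a) and put 1 lower (ccl34b.1). Of all genes, limma then called 92 higher and 126 lower, where the authors' scaling gave 169 and 65. Relative to that median, the member median was 1.60 with the authors' scaling and 1.64 on total reads. On whole reads recovered from the signal, edgeR called the same 8 genes higher and 0 lower, with 0.69% of all genes higher and 0.38% lower. DESeq2 called 13 of 45 members higher and 3 lower, where it called 5.66% and 12.0% of the 20489 genes to which it gave an adjusted p. In the authors' deposited table, 18 of 51 members were higher and 1 lower at a false discovery rate under 0.05, where 6.5% and 14.6% of all genes were.

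**Figure D2:**
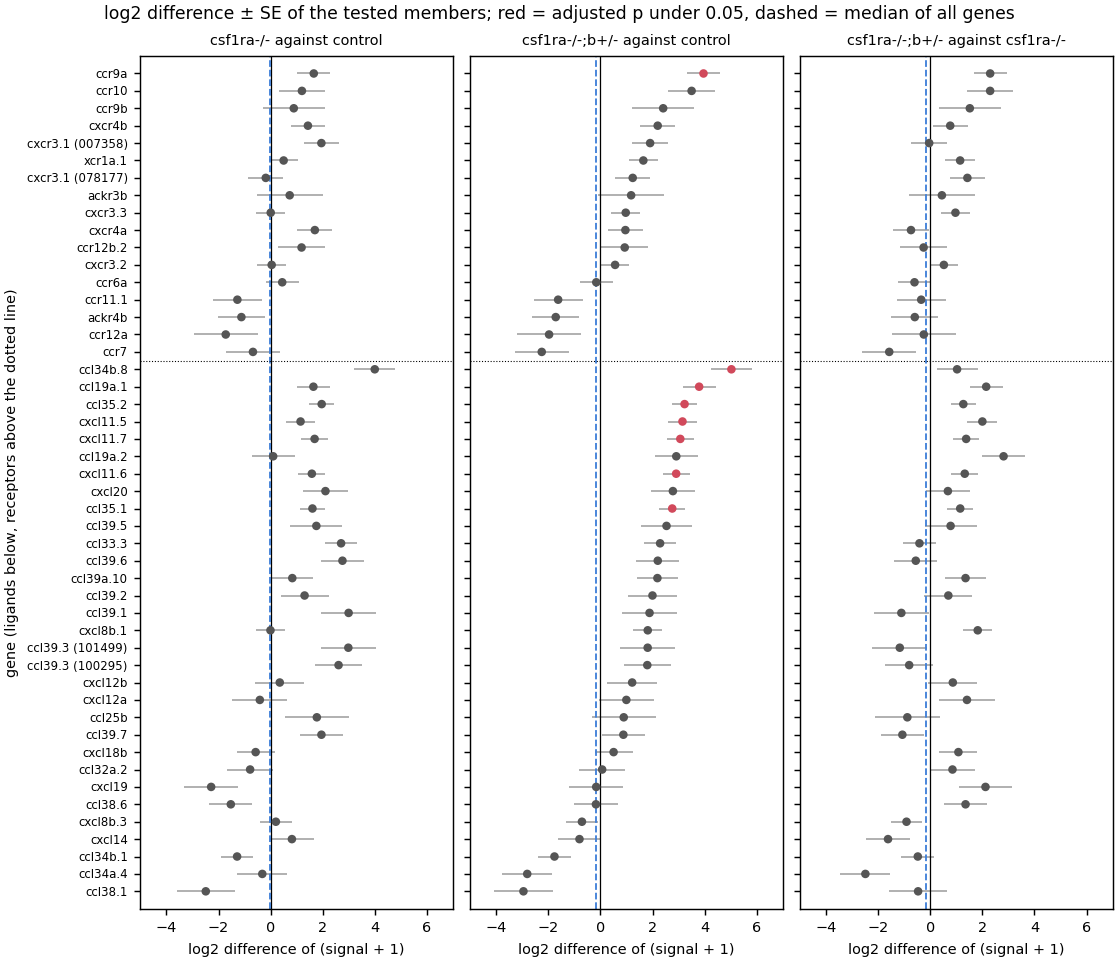
log2 difference of signal plus 1, with its standard error, of the 48 tested members in the 3 pairwise comparisons (n = 2 libraries per group), ordered within ligands and receptors by compound mutants against control. Red points passed the test, which 8 members did in compound mutants against control and 0 in the other panels; the dashed line is the median of all genes tested.

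Of the ligand clusters, ccl34 held genes on either side of control. The gene ccl34b.1, known from zebrafish as a chemokine gene of microglia, had 5623 and 9244 signal units in the controls, 4776 and 1823 in csf1ra-/- libraries, and 2573 and 1748 in the compound mutants. Every mutant library lay below both controls, and the mutant groups overlapped each other. The log2 difference from control was -1.76 ± 0.63 (SE, n = 2 per group) in compound mutants (limma adjusted p = 0.115) and -1.29 ± 0.63 in csf1ra-/- (0.516). Scaled to total reads, the compound mutant difference was -2.49 with a limma adjusted p of 0.0294, and DESeq2 gave an adjusted p of 0.00738. Across the alternatives its adjusted p ran from 0.00738 to 0.457.

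The neighbouring name ccl34b.8 stood the other way. It had 0 reads in both control libraries, 16.02 and 13.96 units of signal in csf1ra-/- libraries (137 and 89 reads), and 24.3 and 41.1 in the compound mutants (300 and 446 reads). Against a floor of 3 reads over the control group, it was at least 165-fold higher in compound mutants and at least 78.0-fold higher in csf1ra-/-. These bounds cover counting error only and were not what limma tested. The log2 difference from control was 5.03 ± 0.79 in compound mutants (limma adjusted p = 0.0277). In csf1ra-/- it was 4.00 ± 0.79 (limma adjusted p = 0.289). The remaining member of the cluster, ccl34a.4, had 12.5 and 16.9 signal units in the controls, 21.3 and 5.96 in csf1ra-/- libraries, and 3.16 and 0.184 in the compound mutants. Its compound mutant libraries lay below the other 4, at a log2 difference of -2.81 ± 0.96 from control that did not pass in limma (adjusted p = 0.105), while DESeq2 gave 0.0329. Reads of 50 nucleotides from such copies could be split among genes or lost, depending on how reads were counted, so values of single copies are uncertain.

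The largest shift in the share of reads lay between ccl34b.1 and ccl19a.1. Of all reads on members, ccl34b.1 held 81.4 and 83.0% in the controls, 54.6 and 29.3% in csf1ra-/- libraries, and 21.3 and 11.45% in the compound mutants. The share of ccl19a.1 came to 3.21 and 4.65% in the controls, 10.5 and 19.6% in csf1ra-/- libraries, and 23.4 and 51.1% in the compound mutants. A share rises when another gene falls, and longer genes give more reads, so shares show unequal change and not the level of a protein.

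**Figure D3:**
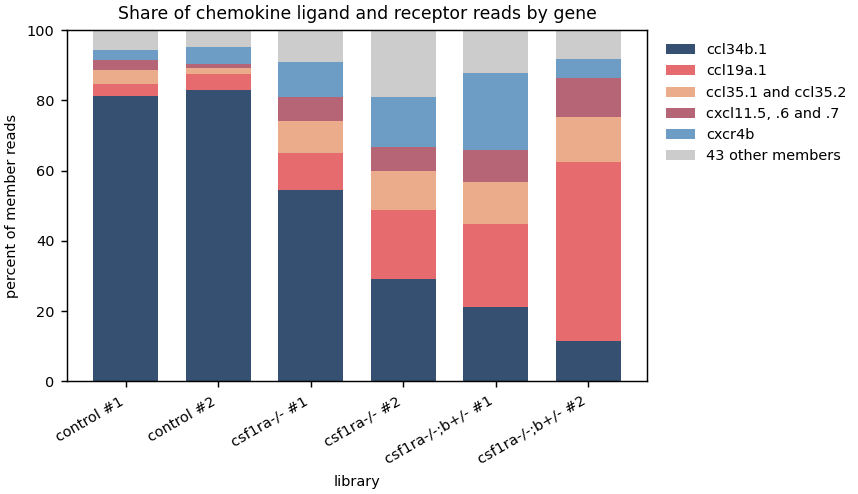
Percent of the reads on the 51 members held by ccl34b.1, ccl19a.1, the ccl35 pair, the cxcl11 genes, cxcr4b and the rest, in each library. The ccl34b.1 share goes from 81.4 and 83.0% in control to 21.3 and 11.45% in compound mutants.

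The ccl19 cluster had one member with many reads and one with few. In mammals CCL19 guides dendritic cells and T cells that carry CCR7. Signal of ccl19a.1 stood at 222 and 518 in the controls, 921 and 1219 in csf1ra-/- libraries, and 2836 and 7791 in the compound mutants. The groups did not overlap, and the compound mutant libraries differed from each other more than the csf1ra-/- libraries did. The log2 difference of compound mutants from control was 3.79 ± 0.64 (limma adjusted p = 0.0338), which is 13.7-fold on pooled reads. Its adjacent copy ccl19a.2 had at most 1.098 units of signal in the control and csf1ra-/- libraries and 6.15 and 13.5 in compound mutants. That log2 difference from control, 2.91 ± 0.82, did not pass (limma adjusted p = 0.0818), while the authors' deposited false discovery rate was 0.0495.

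In the ccl35 cluster, both copies rose in compound mutants and had the same order of groups. Signal of ccl35.1 stood at 192 and 124 in the controls, 505 and 439.9 in csf1ra-/- libraries, and 906 and 1213 in the compound mutants. Signal of ccl35.2 was 78.5 and 56.6, then 279 and 245, then 548 and 731. All csf1ra-/- libraries lay between the control and compound mutant libraries for each copy. The log2 differences of compound mutants from control were 2.76 ± 0.49 for ccl35.1 and 3.23 ± 0.49 for ccl35.2 (limma adjusted p = 0.0387 and 0.0267). Reads of ccl35.1 were 1.65 to 2.45 times those of ccl35.2 in the 6 libraries, with the higher ratios in the controls. In the RefSeq gene order (GRCz12tu), 42 of the 51 members were found by name. Among those found, ccl35.2 had no other member within 3 genes, while ccl35.1 stood next to ccl39.2. Members not found, such as ccl39.5 and ccl39.7, could still lie near ccl35.2.

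The cxcl11 cluster, whose mammalian counterparts are induced by interferon and bind CXCR3, had 3 members, and all rose in compound mutants. Signal of cxcl11.6 stood at 111 and 64.1 in the controls, 298 and 218 in csf1ra-/- libraries, and 523 and 783 in the compound mutants. Signal of cxcl11.7, its neighbour in the RefSeq order, was 76.4 and 50.5, then 229 and 178, then 425 and 656. Both copies had the 3 groups apart in the same order. For cxcl11.5 the values were 22.7 and 24.0, then 75.1 and 37.2, then 173 and 267. Compound mutants differed from control by log2 values of 2.91 ± 0.52 for cxcl11.6, 3.07 ± 0.51 for cxcl11.7 and 3.15 ± 0.57 for cxcl11.5 (limma adjusted p = 0.0395, 0.0338 and 0.0407). With a pseudocount of 0.25, cxcl11.5 and cxcl11.6 no longer passed. Reads of cxcl11.6 were 1.19 to 1.46 times those of cxcl11.7, and 2.68 to 5.86 times those of cxcl11.5, so the last copy moved less closely with the other two.

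**Figure D4:**
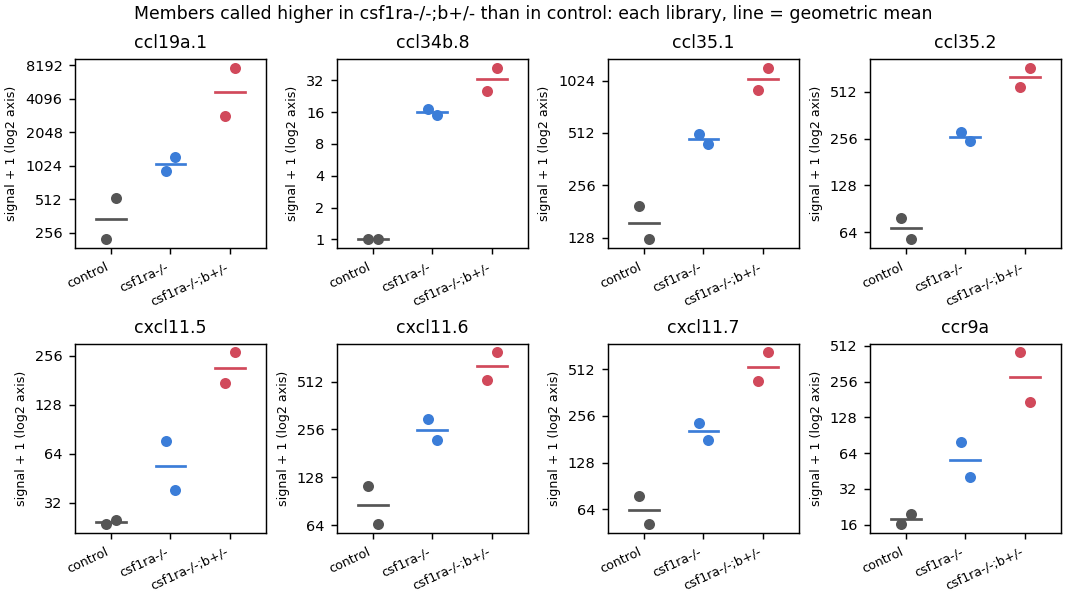
Signal plus 1 on a log2 axis in each library (points) with the geometric mean of the group (line) for the 8 members that rose in compound mutants against control. In all 8 the csf1ra-/- libraries lie between the control and the compound mutant libraries, and ccl34b.8 has 0 reads in both controls.

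The ccl33 and ccl39 clusters varied widely among the mutant libraries. Signal of ccl33.3 stood at 34.004 and 49.3 in the controls, 152 and 488 in csf1ra-/- libraries, and 235 and 178 in the compound mutants. Every mutant library exceeded both controls, and the csf1ra-/- libraries spanned the compound mutant ones. The log2 difference from control was 2.70 ± 0.62 in csf1ra-/- and 2.29 ± 0.62 in compound mutants (limma adjusted p = 0.310 and 0.0781), while DESeq2 gave 0.00259 and 0.0107. Its neighbour ccl33.2 had at most 10 reads in any library and was not tested.

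The ccl39 cluster held 8 genes. Their signal summed to 12.9 and 17.2 in the controls, 72.1 and 90.2 in csf1ra-/- libraries, 32.3 in compound mutant replicate 1 and 157 in compound mutant replicate 2. The compound mutant libraries thus stood on either side of the csf1ra-/- ones. In csf1ra-/- the highest log2 differences from control were those of ccl39.1 (2.99 ± 1.04), the ccl39.3 of identifier ENSDARG00000101499 (2.98 ± 1.05) and ccl39.6 (2.76 ± 0.82), with limma adjusted p of 0.374, 0.375 and 0.355. For ccl39.1, replicate 1 of the compound mutants (3.64) lay within the range of the controls (0.494 and 5.44). The ccl39.3 of identifier ENSDARG00000100295 had 0 reads in both controls and 37, 38, 7 and 73 in the mutant libraries. Signal of ccl39.7 stood at 1.09 and 1.11 in the controls, 6.43 and 7.84 in csf1ra-/- libraries, and 3.40 and 2.39 in the compound mutants. Of the other copies, ccl39.2 reached 67.5, ccl39.5 reached 25.8 and ccl39a.10 reached 6.998, each in compound mutant replicate 2.

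In the ccl38 cluster, ccl38.1 had 16.3 and 17.7 signal units in the controls, 9.24 and 0 in csf1ra-/- libraries, and 0.890 and 1.84 in the compound mutants. Both mutant groups lay below control, at log2 differences of -2.96 ± 1.12 in compound mutants and -2.49 ± 1.12 in csf1ra-/- (limma adjusted p = 0.130 and 0.475). DESeq2 gave 0.0455 for the compound mutants. Its relative ccl38.6 had 2.72 and 4.69 in the controls, 0.935 and 0.314 in csf1ra-/- libraries, and 2.02 and 4.51 in the compound mutants, so that the csf1ra-/- libraries were the low ones. Signal of cxcl19, a CXC ligand, stood at 18.2 and 7.16 in the controls, 5.61 and 0 in csf1ra-/- libraries, and 9.47 and 11.0 in the compound mutants. The log2 difference of csf1ra-/- from control was -2.28 ± 1.03 for cxcl19 and -1.53 ± 0.83 for ccl38.6 (limma adjusted p = 0.476 and 0.563).

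Classical ligands with wide roles in development and inflammation had few reads. Cxcl12, which binds Cxcr4 and steers germ cells and the lateral line in zebrafish, is encoded by cxcl12a and cxcl12b. Signal of cxcl12a was between 0.351 and 12.7, with overlap of csf1ra-/- and the other groups. Signal of cxcl12b was at most 1.57 except in compound mutant replicate 2, at 7.55. Of the cxcl8 genes, whose products attract neutrophils, cxcl8b.1 had at most 2 reads in each control and csf1ra-/- library and 31 and 37 in compound mutants, and cxcl8b.3 had at most 13 reads. Signal of ccl25b, whose mammalian counterpart is the ligand of CCR9, stood at 1.63 and 0 in the controls, 12.6 and 1.25 in csf1ra-/- libraries, and 8.09 and 0 in the compound mutants, so the groups overlapped. The gene ccl27a, whose mammalian counterpart binds CCR10, had 10 and 8 reads in the controls, 5 and 6 in csf1ra-/- libraries, and 0 in both compound mutant libraries, and was not tested. It was the 1 lower member in the authors' deposited table (false discovery rate 0.0208).

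The last ligands were ccl32a.2, cxcl14, cxcl18b and cxcl20. Signal of cxcl20 stood at 3.26 and 0.617 in the controls, 7.25 and 14.4 in csf1ra-/- libraries, and 15.7 and 18.5 in the compound mutants, with the 3 groups apart. Its log2 difference in compound mutants, 2.78 ± 0.85, did not pass (limma adjusted p = 0.0923), while the authors' deposited false discovery rate was 0.0449. Signal of cxcl14 reached 6.43 in csf1ra-/- replicate 2 and was 0.890 and 0 in compound mutants. Signal of ccl32a.2 was 2.20 to 11.69 with overlapping groups, and cxcl18b had reads in 2 libraries, with 9 in control replicate 1 and 43 in compound mutant replicate 1.

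Among the receptors, ccr9a rose in compound mutants. In mammals CCR9 draws T cell precursors to the thymus and lymphocytes to the gut. Signal of ccr9a stood at 15.2 and 18.8 in the controls, 78.5 and 39.1 in csf1ra-/- libraries, and 450.3 and 170.3 in the compound mutants. The groups did not overlap, and the compound mutant difference from control was 3.96 ± 0.64 on the log2 scale (limma adjusted p = 0.0301), or 18.7-fold on pooled reads. Its paralogue ccr9b, at 0.952 and 0.370 in control, had 0 and 8.16 in csf1ra-/- libraries and 17.2 and 3.13 in the compound mutants, with wide spread. Signal of ccr10, a skin homing receptor of T cells in mammals, stood at 2.04 and 1.48 in the controls, 11.46 and 2.20 in csf1ra-/- libraries, and 23.2 and 38.9 in the compound mutants. Its groups were apart in that order, but the log2 difference from control did not pass (limma adjusted p = 0.0732). DESeq2 gave 0.00284 for it.

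The receptor with most reads was cxcr4b, which binds Cxcl12 and directs migrating and retained leukocytes. Its signal stood at 201 and 517 in the controls, 867 and 875 in csf1ra-/- libraries, 2651 in compound mutant replicate 1 and 831 in compound mutant replicate 2. All mutant libraries exceeded both controls, and the compound mutant libraries lay on either side of csf1ra-/-. The compound mutant difference from control, 2.20 ± 0.66, did not pass in limma (adjusted p = 0.0918), while DESeq2 gave 0.0115. Signal of the paralogue cxcr4a stood at 12.1 and 22.7 in the controls, 40.7 and 77.3 in csf1ra-/- libraries, and 50.0 and 22.0 in the compound mutants. Its compound mutant and control libraries overlapped. Signal of ackr3b, a scavenger receptor for Cxcl12, was 0.405 to 6.43 in 5 libraries and 20.3 in compound mutant replicate 2.

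The cxcr3 genes encode receptors for Cxcl11 ligands, of which Cxcr3.2 guides zebrafish macrophages and Cxcr3.3 takes up ligand. Signal of cxcr3.2 stood at 104 and 209 in the controls, 179.8 and 128 in csf1ra-/- libraries, and 272 and 175 in the compound mutants, and all groups overlapped. Signal of cxcr3.3 was 24.9 and 28.8, then 27.9 and 25.7, then 60.9 and 46.9. Only the compound mutants lay apart for cxcr3.3, by a log2 difference from control of 0.97 ± 0.57 (limma adjusted p = 0.285). The cxcr3.1 of identifier ENSDARG00000007358 had 23.9 and 23.3 in the controls, 46.2 and 190.2 in csf1ra-/- libraries, and 91.4 in each compound mutant library. Every mutant library exceeded the controls, and limma gave adjusted p of 0.374 and 0.115 for csf1ra-/- and compound mutants. The authors' deposited false discovery rate of this gene was 0.0307 in compound mutants against control. The cxcr3.1 of identifier ENSDARG00000078177 had at most 3.72. The ligands cxcl11.5, cxcl11.6 and cxcl11.7 thus passed in limma while 0 of the 4 cxcr3 genes did. The difference between ligands and receptors was not tested.

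Signal of xcr1a.1 stood at 37.7 and 51.9 in the controls, 67.0 and 59.0 in csf1ra-/- libraries, and 98.3 and 201 in the compound mutants. In mammals XCR1 marks dendritic cells that cross-present antigen. The groups were apart in that order, at a log2 difference of 1.65 ± 0.56 in compound mutants (limma adjusted p = 0.106). The authors' deposited false discovery rate of xcr1a.1 was 0.0265 in compound mutants against control. For ccr7, the receptor of CCL19 in mammals, signal stood at 5.44 and 3.83 in the controls, 9.47 and 0.157 in csf1ra-/- libraries, and 0 and 0.368 in the compound mutants. It therefore had 0 and 4 reads in the libraries in which ccl19a.1 was highest. The ccr7 log2 difference from control was -2.25 ± 1.04 (limma adjusted p = 0.193).

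The other receptors had low or widely spread values. Signal of ccr12a, a fish receptor, stood at 18.9 and 36.4 in the controls, 16.8 and 2.82 in csf1ra-/- libraries, and 25.5 and 0.829 in the compound mutants, so replicate 2 was the low library of each mutant group. The csf1ra-/- difference from control was -1.72 ± 1.22 on the log2 scale (limma adjusted p = 0.676). Signal of ackr4b, whose mammalian counterpart scavenges CCL19 and CCL25, stood at 3.67 and 6.42 in the controls, 0.702 and 3.29 in csf1ra-/- libraries, and 1.94 and 0.0921 in the compound mutants. Every mutant library of ackr4b lay below both controls. Signal of ccr11.1 was at most 6.79 and that of ccr12b.2 was 2.22 to 11.4. Signal of ccr6a, related to the receptor of CCL20 in mammals, was at most 1.36, and that of ccr8.1, not tested, was at most 2.57.

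In csf1ra-/- against control, 0 members passed in limma, edgeR also called 0, and limma called 0 of all 21316 genes. At an unadjusted limma p under 0.05, 16 members were higher and 0 lower, where 5.41% and 5.11% of all genes were. Both csf1ra-/- libraries exceeded both controls for 24 of the 48 tested members and lay below for 6, against 18.6% and 20.2% of all genes. The median log2 difference was 0.86 over members and -0.03 over all genes. DESeq2 called ccl33.3 and ccl34b.8 higher (1.08% of the 15943 genes with a DESeq2 adjusted p). The authors' deposited table had the same 2 members higher and 0 lower at a false discovery rate under 0.05 (0.618% and 0.133% of all genes). Of all genes, edgeR put 0.0141% lower, and DESeq2 put 0.42% of its 15943 genes lower, with 0 members among them.

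In compound mutants against csf1ra-/-, again 0 members passed in limma and in edgeR, where limma called 0.00938% of all genes higher and 0.0141% lower. At an unadjusted limma p under 0.05, 10 members were higher and 1 lower, against 6.47% of all genes each way. Among members without overlap and with a mean of 20 reads in the higher group, the largest log2 differences upward were those of ccl19a.2 (2.82 ± 0.82), ccr9a (2.30 ± 0.64), ccr10 (2.30 ± 0.90) and ccl19a.1 (2.15 ± 0.64), with limma adjusted p of 0.260 to 0.339. The largest downward were those of ccl34a.4 (-2.49 ± 0.96), cxcl14 (-1.62 ± 0.84), ccl39.7 (-1.07 ± 0.84) and ccl39.6 (-0.55 ± 0.82). DESeq2 called ccl19a.1, ccr9a and cxcl11.5 higher and 0 members lower (2.36% and 4.65% of the 19663 genes with a DESeq2 adjusted p). The authors' deposited table had the same 3 higher and 0 lower (1.99% and 5.66% of all genes). Of all genes, edgeR put 0.00938% higher and 0.0375% lower. The compound mutant libraries lay above both csf1ra-/- libraries for 17 members and below for 6, where 20.0% and 28.9% of all genes did so.

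With both mutant groups averaged, ccl34b.8 and ccl35.2 passed as higher than control (limma adjusted p = 0.0421 and 0.0488) and 0 members as lower, against 0.155% and 0.0469% of all genes. Their log2 differences were 4.51 ± 0.68 and 2.59 ± 0.42 (n = 4 and 2 libraries). With 1 library left out, the median log2 difference was 1.04 to 1.36 over members and -0.111 to -0.0454 over all genes. Each such fit has 1 library in a group, so it cannot test how firm these calls are. At an unadjusted limma p under 0.05, 19 members were higher and 2 lower (9.29% and 11.3% of all genes), and without overlap 20 and 3 (10.9% and 13.6%). By edgeR 1 was higher and 0 lower (0.113% and 0.0938%), and 14 and 0 in the authors' deposited table (3.54% and 9.18%). By DESeq2 they were 15 and 1 (3.49% and 5.05% of the 19663 genes with a DESeq2 adjusted p). This comparison and both single mutant comparisons share their control libraries.

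Genes that carry the receptors' signal were read beside them. Of 44 tested genes for G protein subunits, arrestins, phosphoinositide 3-kinases, Rac activators and regulators of G protein signaling, 1 rose and 0 fell in compound mutants against control. That gene, tiam1a, encodes an activator of Rac and had 34.4 and 25.4 signal units in the controls, 179.9 and 92.4 in csf1ra-/- libraries, and 384 and 392 in the compound mutants. Its log2 difference was 3.67 ± 0.54 (limma adjusted p = 0.0248). The list's median was 0.05. Of 16 other chemoattractant genes, s1pr1, a sphingosine 1-phosphate receptor, rose, from 9.79 and 34.5 in control to 243 and 261 in compound mutants (3.69 ± 0.66, limma adjusted p = 0.0387), and 0 fell, with a median of 0.54. In compound mutants against control limma called 0.793% of all genes higher and 0.305% lower. In csf1ra-/- against control 0 genes of either list passed in limma, where it called 0 of all 21316 genes.

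Among the marker lists of other leukocytes, that of dendritic cells had the most genes past the test. Of the 8 genes of a dendritic cell list, 7 were tested, and id2a, batf3 and cd83 rose in compound mutants against control while 0 fell. Limma called 0.793% of all genes higher and 0.305% lower there. The list summed to 183 and 221 signal units in the controls, 580.4 and 649.7 in csf1ra-/- libraries, and 1171 and 1980.4 in the compound mutants. Signal of batf3, a transcription factor that cross-presenting dendritic cells need in mice, stood at 9.93 and 27.4 in the controls, 55.0 and 72.5 in csf1ra-/- libraries, and 155 and 289 in the compound mutants. That difference was 3.59 on the log2 scale (limma adjusted p = 0.0387). Signal of flt3, the receptor of a dendritic cell growth factor, was 25.6 and 57.5, then 83.6 and 209, then 254 and 332 (limma adjusted p = 0.0570). In contrast zbtb46 had 31.4 and 34.8 in control and 20.8 and 18.9 in compound mutants. Of the 8 genes, batf3, cd83, id2a and flt3 had the same order of groups as ccl19a.1, ccl35, cxcl11 and xcr1a.1. The gene zbtb46 did not, and the order of the rest of the list is not given here. The list as a whole is therefore not shown to have that order. The genes named here were picked out with their values known. The order was not particular to this list, since tiam1a of the signaling list also had it. The part of dendritic cell genes in the chemokine results was not tested.

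The other leukocyte lists had 1 call between them in compound mutants against control, where limma called 0.793% of all genes higher and 0.305% lower. At such shares, a count of 0 in a list this short says nothing particular about its cells. Of 12 tested B lymphocyte genes, CD37 rose in compound mutants, and the list summed to 206 and 369.9 in the controls, 442 and 878 in csf1ra-/- libraries, and 469.8 and 782 in the compound mutants. For 14 T and natural killer cell genes, 0 passed, and the sums were 38.9 and 49.9, then 75.9 and 204, then 91.5 and 50.7. Their median log2 difference was 0.36. Genes with 0 reads numbered 0 and 3 in the controls, 1 and 1 in csf1ra-/- libraries, and 4 and 7 in the compound mutants. Picked from these, zap70, gata3, tcf7 and nkl.2 had 0 reads in both compound mutant libraries. For 8 neutrophil genes 0 passed, the sums ranged from 40.3 to 119 over the 6 libraries, and the median was 0.06. Genes with 0 reads numbered 1 and 0, then 1 and 0, then 1 and 2. Of these, mpx had 0 reads in both compound mutant libraries. The oligodendrocyte list summed to 372 and 533 in the controls, 472 and 481 in csf1ra-/- libraries, and 2780.0 and 4443 in the compound mutants, with 3 of 10 genes higher. In compound mutants against csf1ra-/-, limma called 2 genes of this list higher, the only 2 called higher among all genes tested. The lists for radial glia, epithelium, endothelium, neurons and red cells were read in compound mutants against control. Of their genes, 1 rose (glulb, of 9 radial glia genes) and 0 fell. In csf1ra-/- against control 0 genes of any marker list passed in limma. It called 0 of all 21316 genes there, so that count says nothing particular about the lists. The part of these cells in the chemokine values was not tested.

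**Figure D5:**
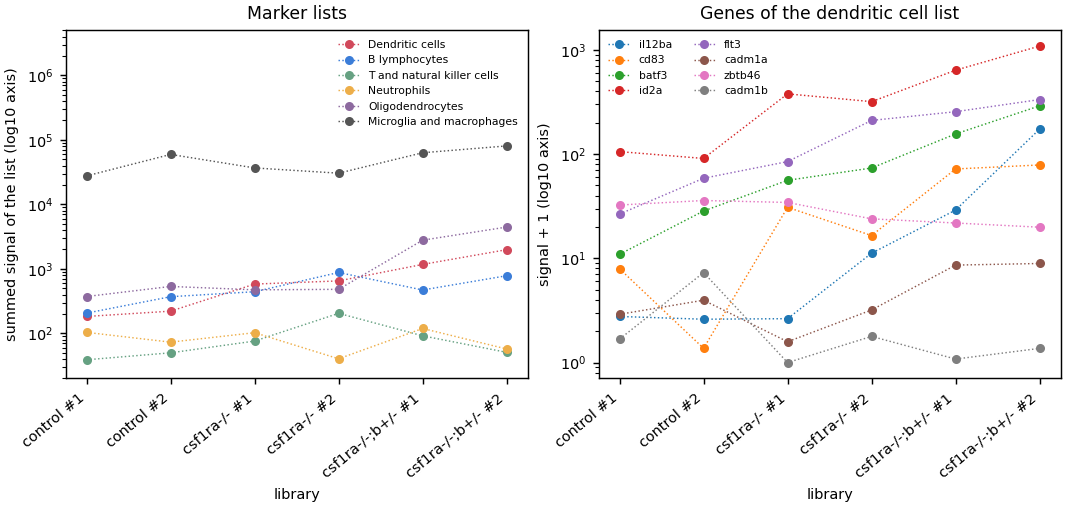
Left, summed signal of 6 marker lists on a log10 axis; right, signal plus 1 of the 8 genes of the dendritic cell list on a log10 axis, in each library, with dotted lines that only join points of 1 list or gene. The dendritic cell list goes from 183 and 221 in control to 1171 and 1980.4 in compound mutants, while zbtb46 does not.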

How the data were processed

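Per the submitters' processing notes, HISAT2, edgeR and GRCz10 were used; no version, annotation or counting setting is named there. The authors deposited 1 table of 21860 genes in units of signal, which per the file headers and the values is reads over a scaled library size. All values (100.0%) were whole multiples of the signal of 1 read within 0.001, so whole reads were recovered. The log2 fold changes and false discovery rates, given as p-values adjusted over genes, are the authors' deposited ones. Another 15 columns of per-sample or per-group values were not used. Signal was tested with limma 3.58.1 (intensity trend, pseudocount 1, all 6 libraries, 3 group means, R 4.3.3) for the 21316 genes that reached a signal of 1 in 2 or more libraries. Alternatives used edgeR 4.0.16 and DESeq2 1.42.0. The test was tried on simulated data. Members and lists were chosen with earlier results of these data known. Named in full were members that passed, up to 4 largest rises and falls per pairwise comparison without overlap and with a mean of 20 reads, the 5 ligands and 5 receptors with most reads, and known ligand-receptor pairs; ccl33.3, cxcl20 and others outside that rule complete the clusters.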

Additional observations from a re-analysis of the deposited data

How the results depend on the processing

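In compound mutants against control, the count of members called higher was 8, and stayed within 6 to 8 with pseudocounts of 0.25 and 4, no filter, median-ratio scaling, edgeR and the title number as a block. It was 13 by DESeq2 and 4 on total reads, and the count lower was 0, 3 by DESeq2 and 1 on total reads. Of all genes, limma called 169 higher and 65 lower. Higher were 76 and 211 with pseudocounts of 0.25 and 4, 162 with no filter and 137 with median-ratio scaling. They were 147 by edgeR, 405 with the block, 1159 by DESeq2 and 92 on total reads. Lower were 2459 by DESeq2 and 126 on total reads. Fits with 1 library left out have 1 library in a group, and their calls are not counted here. In csf1ra-/- against control and in compound mutants against csf1ra-/-, DESeq2 alone moved the count higher, from 0 to 2 and to 3. Of all genes, DESeq2 put 172 and 464 higher there, where limma put 0 and 2. For both mutant groups against control, the count higher was 2, where 33 of all genes were higher. It was 1 with a pseudocount of 0.25 (24 of all genes), 0 with a pseudocount of 4 (19) and 1 with no filter (27). It was 1 with median-ratio scaling (25 of all genes), 1 by edgeR (24) and 15 by DESeq2 (686). DESeq2 there put 1 lower, where it put 992 of all genes lower. Scaled to total reads, the count higher was also 2 (25 of all genes), but of ccl34b.8 and ccl19a.1, without ccl35.2. With the replicate number as a block that count was 8, where 121 of all genes were higher. The deviations of same-numbered libraries correlated at only 0.00600 to 0.0180 between groups, so the numbers are not shown to pair them. For members that passed or were among the largest changes without overlap, the log2 difference turned in 0 alternatives. Only the comparison that picked each member was checked. Other named members could turn: cxcl12a in csf1ra-/- against control was -0.42 by limma and 0.16 by edgeR. Of the fits checked, 70 ended a call, 8 made one and 356 changed none. The cause was not tested. With 2 libraries a group, a call lost when 1 is left out also reflects fewer samples. The floor of 3 reads bounds a group with 0 reads, where a lower level could go unseen at this depth. It is not a limit of detection, since lower counts in single libraries were kept as values.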

Other observations

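Of the 20 genes that the deposited annotation ties to chemokines but whose names, in capitals or of another kind, fall outside the rule, 1 passed in compound mutants against control and 0 in the other pairwise comparisons by limma. It is listed as CMKLR1 (1 of many), a relative of the chemerin receptor, and had 4.62 and 10.3 signal units in the controls, 17.1 and 46.3 in csf1ra-/- libraries, and 146 and 307 in the compound mutants. A gene without a name (ENSDARG00000102514), annotated as like CXCL11, had 182.1 and 63.4 in the controls, 348 and 333 in csf1ra-/- libraries, and 531 and 664 in the compound mutants, with the groups apart. Of the pair of rows listed as CXCL11 (1 of many), ENSDARG00000100662 had 36.6 and 0 in the controls, 23.97 and 21.3 in csf1ra-/- libraries, and 58.9 and 53.7 in the compound mutants, so the csf1ra-/- libraries lay between the controls. The other, ENSDARG00000101138, had 6.12 and 0.123 in the controls, 24.2 and 34.03 in csf1ra-/- libraries, and 57.8 and 49.5 in the compound mutants, with the groups apart. Neither row passed in limma (adjusted p = 0.149 and 0.0508 in compound mutants against control). Not all of these rows were higher in the mutants. Signal of si:ch211-207g17.2, annotated as like C-C chemokine receptor type 5, was 20.0 and 87.4 in the controls and 16.5 and 9.41 in csf1ra-/- libraries. In the compound mutants it was 17.2 and 4.88, a log2 difference from control of -2.06 ± 0.87 that did not pass (limma adjusted p = 0.162). The row annotated as cxcl8a, CT826376.2, had at most 6.74 in any library. These genes were picked out with their values known.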
